A study of Arabidopsis thaliana with 64 samples.

Results

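The 33 XTH genes and 16 EXPA genes of Arabidopsis thaliana, families whose products loosen the plant cell wall, were followed through every RNA library and peak list of a study of the clock protein ELF3. The 49 genes were taken from a list of their locus tags, out of 32833 loci counted. XTH stands for xyloglucan endotransglucosylase/hydrolase, an enzyme that cuts xyloglucan chains between cellulose fibres and joins the cut ends to other chains. Alpha-expansins, the products of the EXPA genes, loosen the contacts between wall polymers at acid pH without cutting them. Both families are known to act where cells grow, and single members are known for roots, root hairs, shade, touch or brassinosteroid treatment.

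The study measured transcript 3′ ends in 38 libraries from pooled Col-0 background seedlings, and listed DNA bound by tagged ELF3 proteins as peaks in 25 ChIP samples. ELF3, ELF4 and LUX form the evening complex, a clock repressor known to hold down the growth regulators PIF4 and PIF5. For RNA, seedlings were raised on plates for 10 days under short days (light for 8 h, dark for 16 h) at 12, 22 or 27 °C, with no harvest time stated. For ChIP they were raised at 17 or 22 °C, and part of them spent 2 h at 27 °C.

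The RNA groups were the mutants elf3-1 and elf4-2 (2 libraries each), each mutation crossed into the other gene's overexpressor (elf3-1 X ELF4-ox with 2 libraries, and 2 of elf4-2 X ELF3-ox), and the overexpressors ELF4-ox (2) and ELF3-ox (3). The remaining groups were BdELF3-ox, with ELF3 of the grass Brachypodium (5), StELF3-ox, with potato ELF3 (3), ELF3pro::BdELF3 (1), lines of ELF3pro::ELF3 with a polyglutamine stretch of 0 (Q0, 5), 7 (Q7, 3) or 21 (Q21, 5) residues, and Col-0, the wild type (3). Bd, St and Q are read here as in the published study, since the labels do not spell them out. ELF3pro marks transgenes driven by the ELF3 promoter, and Q0, Q7 and Q21 each came as 2 numbered lines. The labels name neither the promoter of the overexpressors nor, for the transgenic RNA lines, whether their own ELF3 is mutated. The ChIP lines carried Flag-, HA- or c-Myc-tagged ELF3, BdELF3, StELF3, ELF3 with 15 or 20 glutamines (Q15, Q20) or ELF3 with the Brachypodium prion-like domain (BdPrD), and 2 of the lists are input chromatin. The c-Myc-tagged ELF3 (ELF3pro::ELF3-MYC) was carried in elf3-1, and in elf3-1 crossed with ELF4-ox. In all, 20 libraries were grown at 27 °C, 3 at 12 °C (ELF3-ox, StELF3-ox and BdELF3-ox) and 15 at 22 °C. Of the 33 combinations of line and temperature, 29 had 1 library. The main fit therefore takes temperature to act alike in all lines, and p-values measure the spread of these libraries around it. That spread includes differences between lines in their temperature response, and is not a spread between replicates alone. The labels do not say that replicates were separate cultures.

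Libraries held 4381010 to 25649275 counts in genes (median 12076203). The ELF3 transcript had 26.7 CPM at 27 °C and 17.5 CPM at 22 °C in elf3-1 (CPM, reads per gene scaled to the library's size), against 22.4 and 17.2 CPM at 27 °C and 29.95 CPM at 22 °C in Col-0. The levels overlap, so this count does not check the mutation. In ELF3-ox the ELF3 transcript had 37.2 CPM at 22 °C, 35.1 CPM at 27 °C and 9.42 CPM at 12 °C. The Q0 lines had 83.1 to 351.5 CPM of ELF3 and the Q21 lines 37.0 to 117.6 CPM, so ELF3 level differed along with polyglutamine length, in overlapping ranges. ELF4 had 38.1 and 32.0 CPM in elf4-2 and 110.5 and 95.5 CPM in ELF4-ox, against 59.8 to 67.5 CPM in Col-0. It also had 156.9 CPM in ELF3pro::BdELF3 27 °C, so its level does not by itself mark ELF4-ox. All 5 leaf markers had reads in every library. The summed level of 10 root markers was 30.04 CPM in BdELF3-ox 27 °C replicate 2 and 29.3 CPM in ELF3pro::BdELF3 27 °C, against 145.9 to 429.9 CPM in the other 36 libraries. These 2 libraries, called root-poor here, have 3 and 5 of the 10 root markers at 0, and results that rest on them are given with and without them. In bulk seedlings, fewer cells of a type and less RNA per cell cannot be told apart.

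Of the members, 28 XTH and 16 EXPA genes had at least 1 CPM in at least 3 libraries and were tested, among 19587 loci. XTH1 had 0 reads in all 38 libraries, which allows at most 0.00619 CPM over all libraries together by a floor of 3 counts. XTH2, XTH3, XTH10 and XTH29 had reads but failed the filter, with highest levels of 0.160, 0.158, 0.802 and 0.528 CPM. The summed XTH level had a median of 2057 CPM at 12 °C, 1832 CPM at 22 °C and 2242 CPM at 27 °C. The summed EXPA level had medians of 305 CPM, 344 CPM and 328 CPM at the same temperatures. Reads of close copies may be shared between them: XTH12, XTH13, XTH22 and XTH25 lie side by side on chromosome 5, XTH18, XTH19 and XTH24 on chromosome 4, and XTH14 beside XTH23 there, and no source used here names the counting tool.

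At 27 °C, both families split, with members higher and members lower than at 22 °C. Among the XTH genes, 6 rose and 6 fell, and among the EXPA genes 2 rose and 4 fell (edgeR quasi-likelihood test on all 38 libraries with terms for line, temperature and title prefix, Benjamini-Hochberg adjusted p under 0.05 over 19587 loci). The 12 of 28 XTH genes called are 42.9% and the 6 of 16 EXPA genes 37.5%, against 34.3% of all genes tested, so the shares called lay near the background. Genes called higher made up 17.7% of all genes and genes called lower 16.7%. For no member did the groups stand fully apart, against 0.199% of all genes. The median log2 change was −0.12 over the XTH genes and −0.23 over the EXPA genes, against 0.01 over all genes tested. Leaving out the root-poor libraries, 14 XTH genes (8 higher, 6 lower) and 9 EXPA genes (2 higher, 7 lower) were called, against 40.4% of all genes, and all 12 XTH and 6 EXPA calls were among them.

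**Figure D1:**
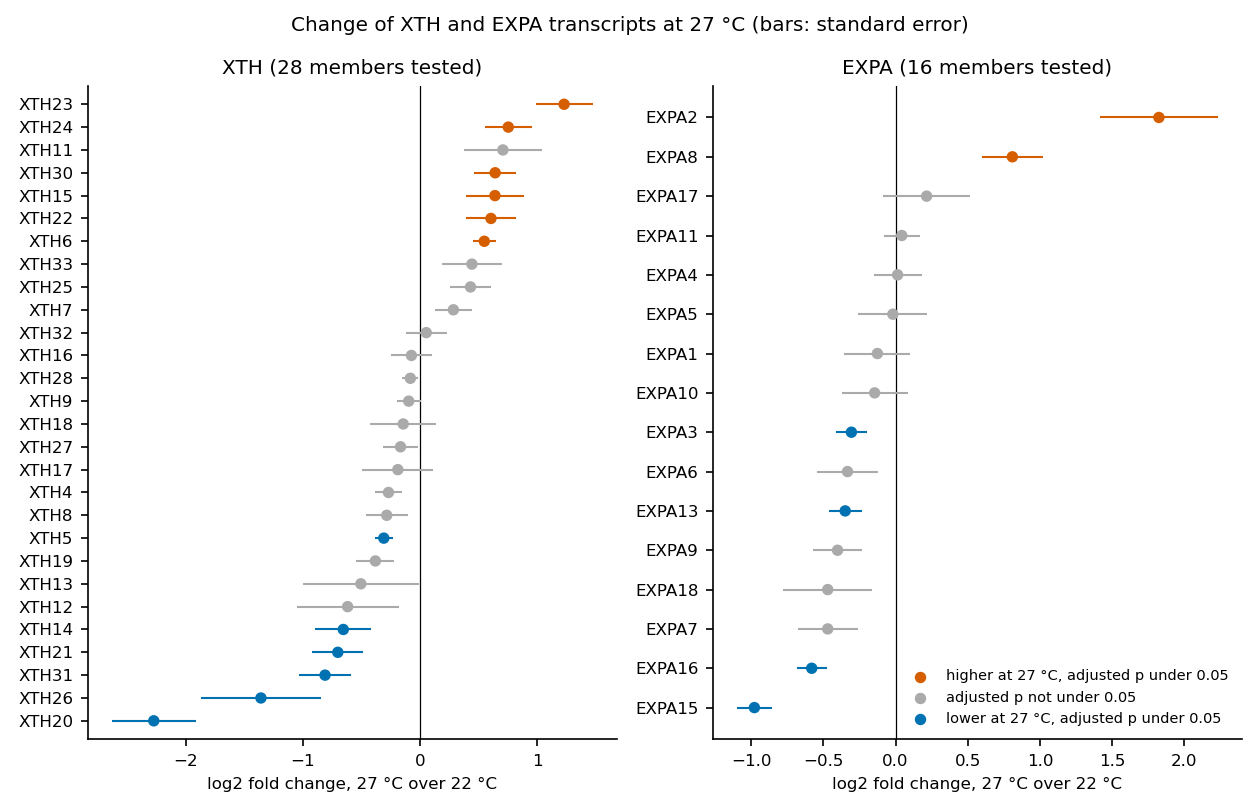
Log2 fold change of each tested XTH (left) and EXPA (right) member at 27 °C over 22 °C on the horizontal axis, with its standard error as a bar, ordered by size. Orange members passed the test as higher at 27 °C, blue ones as lower, grey ones did not pass: XTH members run from −2.28 (XTH20) to 1.23 (XTH23), EXPA members from −0.98 (EXPA15) to 1.82 (EXPA2).

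The XTH genes that rose included the pair of touch- and brassinosteroid-responsive genes XTH22 (TCH4) and XTH23 and XTH24 (MERI5). XTH24 (AT4G30270) had 160, 536 and 794 CPM (lowest, median and highest) in the 20 libraries at 27 °C, against 108, 328 and 495 CPM in the 15 at 22 °C. The ranges overlapped, but 12 warm libraries exceeded the highest level at 22 °C. XTH24 rose by 0.75 ± 0.20 on the log2 scale (SE, edgeR adjusted p = 0.00622) and its mean level was higher at 27 °C in 14 of the 14 lines grown at both temperatures. XTH23 (AT4G25810) had 5.43, 22.6 and 41.1 CPM at 27 °C, against 3.41, 10.3 and 26.6 CPM at 22 °C, and the 2 lowest warm values were those of the root-poor libraries. Its log2 change was 1.23 ± 0.24 (edgeR adjusted p = 0.000556), with 13 of 14 lines higher. XTH22 (AT5G57560) had 13.9, 42.5 and 82.3 CPM at 27 °C, against 12.1, 23.7 and 61.9 CPM at 22 °C. Its change was 0.61 ± 0.22 (edgeR adjusted p = 0.0339), and 12 of 14 lines were higher. Col-0 was one of the other two, with a log2 difference of −0.20 between its mean levels (49.6 and 35.2 CPM at 27 °C, against 48.9 CPM at 22 °C).

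XTH6 (AT5G65730) was, like XTH24, higher at 27 °C in 14 of 14 lines. It had 74.6, 191 and 400.5 CPM at 27 °C, against 71.2, 101.2 and 165 CPM at 22 °C, with 12 warm libraries past the 22 °C range. Its log2 change was 0.55 ± 0.10 (edgeR adjusted p = 0.000217). XTH30 (AT1G32170) had 15.8, 140 and 249 CPM at 27 °C, against 68.1, 85.7 and 184 CPM at 22 °C. Both warm values below the 22 °C range, 17.2 and 15.8 CPM, came from the root-poor libraries. The change of XTH30 was 0.64 ± 0.18 with them and 0.74 ± 0.08 without them, and 13 of 14 lines were higher. XTH15 (XTR7, AT4G14130), a gene known to respond to shade, rose by 0.64 ± 0.25 (edgeR adjusted p = 0.0486). Its adjusted p was 0.0630 under DESeq2 and 0.000625 without the root-poor libraries, and 10 of 14 lines were higher. In Col-0 it had 30.2 and 21.4 CPM at 27 °C, against 34.1 CPM at 22 °C, the opposite direction.

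Of the 6 XTH genes that fell, XTH20 (AT5G48070), known from roots and from the rejoining of cut stems, fell most. It fell by 2.28 ± 0.36 on the log2 scale (edgeR adjusted p = 5.84e-05). It had 0, 0.33 and 1.68 CPM at 27 °C, against 0.83, 1.40 and 2.94 CPM at 22 °C, and 15 of the 20 warm libraries lay below every library at 22 °C. All 14 lines moved down. The warm levels lie near the 0.139 to 0.791 CPM that 3 counts are worth in the libraries at 27 °C.

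XTH31 (XTR8, AT3G44990), an enzyme known to hydrolyse xyloglucan, had 2.29, 6.02 and 10.8 CPM at 27 °C, against 3.61, 8.42 and 17.0 CPM at 22 °C, with overlapping ranges. Its log2 change was −0.81 ± 0.22 (edgeR adjusted p = 0.00759), and 12 of 14 lines were lower. XTH14 and XTH26, genes known from roots and root hairs, changed by −0.66 ± 0.24 and −1.36 ± 0.52, and the root-growth gene XTH21 by −0.70 ± 0.22. XTH26 had 0 to 0.525 CPM at 27 °C, against 0 to 1.15 CPM at 22 °C. Its warm levels lie near the 0.139 to 0.791 CPM that 3 counts are worth, and it did not pass without the low-count filter. XTH14 had 0, 6.93 and 12.9 CPM at 27 °C, against 5.05, 12.8 and 20.6 CPM at 22 °C, and its 2 warm values at 0 came from the root-poor libraries. Without those libraries the changes of XTH14, XTH26 and XTH21 were −0.56, −1.32 and −0.62, and each still passed the test. XTH5 fell least, by 0.31 ± 0.08 (edgeR adjusted p = 0.00417), with 12 of 14 lines lower. With 3 counts as the lowest level, 5 XTH genes were lower in both root-poor libraries than in all others. Of these, XTH14 fell at 27 °C, XTH15 and XTH30 rose, and XTH16 and XTH18 did not pass. Both root-poor libraries were grown at 27 °C, and the part of root content in these changes was not tested.

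The other 16 XTH genes did not pass, with log2 changes between −0.62 (XTH12) and 0.71 (XTH11). XTH4 had medians of 381 CPM at 27 °C and 436 CPM at 22 °C (log2 change −0.27, edgeR adjusted p = 0.0787). XTH7 had medians of 389 CPM and 335 CPM (0.29, adjusted p = 0.167; 0.36, adjusted p = 0.0149 without the root-poor libraries). XTH27, known from leaf veins, had 122 CPM and 129 CPM (−0.17, adjusted p = 0.414). A missed threshold does not show that these levels were equal.

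Of the expansins, EXPA2, known for its part in seed germination, and EXPA8 rose. EXPA2 (AT5G05290) had 0, 1.83 and 12.5 CPM at 27 °C, against 0.134, 0.852 and 3.05 CPM at 22 °C. Its change was 1.82 ± 0.41 (edgeR adjusted p = 0.00162), 12 of 14 lines were higher, and 8 warm libraries exceeded the 22 °C range. EXPA8 (AT2G40610) had 17.8, 35.3 and 79.5 CPM at 27 °C, against 6.35, 17.7 and 48.8 CPM at 22 °C. The highest warm value was that of the root-poor BdELF3-ox library, and the change of 0.81 ± 0.21 (edgeR adjusted p = 0.00495) became 0.69 ± 0.17 without the root-poor pair.

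EXPA15 (AT2G03090) and EXPA16 fell in 13 of 14 lines each. EXPA15 had 3.99, 6.63 and 11.8 CPM at 27 °C, against 7.13, 12.4 and 19.7 CPM at 22 °C, and 12 warm libraries lay below the 22 °C range. Its log2 change was −0.98 ± 0.12 (edgeR adjusted p = 3.64e-06). EXPA16 (AT3G55500) had 24.0, 66.6 and 132 CPM at 27 °C, against 69.1, 95.3 and 120 CPM at 22 °C, a change of −0.58 ± 0.10 (edgeR adjusted p = 0.000196). Its 2 lowest values were those of the root-poor libraries, and the change without them was −0.54 ± 0.09. EXPA13 and EXPA3 fell by 0.35 ± 0.11 and 0.31 ± 0.11 (edgeR adjusted p = 0.0202 and 0.0329), in 12 and 9 of 14 lines. The root-hair expansins EXPA7 and EXPA18 both had a log2 change of −0.47 and did not pass (edgeR adjusted p = 0.0830 and 0.254). EXPA7 passed under DESeq2 (−0.49, adjusted p = 0.0319) and without the root-poor libraries (−0.38, edgeR adjusted p = 0.0150).

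Related wall genes and growth regulators were read from lists at 27 °C, and each count stands beside the 34.3% of all genes called. Of 14 genes of xyloglucan synthesis and trimming, the glucan synthases CSLC5, CSLC6 and CSLC12 fell (log2 changes −0.46, −0.29 and −0.58) and the fucosidase AXY8 rose (0.56). Of 12 other expansin and expansin-like genes, 7 were tested: EXPA14, EXPA20, EXPB3 and EXLB1 fell (−0.97, −0.57, −0.83 and −1.17) and EXLA1 rose (0.60). Of 7 genes for primary wall cellulose synthases and proton pumps, the pump gene AHA1 rose (0.26). Of 15 growth regulators, PIF5 (1.09), HFR1 (1.02), BEE1 (0.75) and BZR1 (0.28) rose and 0 fell.

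Leaf and root markers also differed with temperature. All 5 leaf markers fell at 27 °C, with a median summed level of 10890 CPM at 27 °C and 16450 CPM at 22 °C. Of 8 root markers tested, 4 fell, and outside the root-poor pair the median summed root level was 231 CPM at 27 °C and 237 CPM at 22 °C. Their part in the change of any member was not tested. The samples also differ in the number that opens their titles (177, 178, 181 or 184). Within the 7 lines whose 27 °C and 22 °C libraries share that number (15 libraries), XTH6 (0.70), XTH5 (−0.49), XTH20 (−2.19), EXPA8 (1.00) and EXPA15 (−0.84) still passed. All other called members tested in that smaller fit kept their sign, with 1464 genes called in all, and XTH26 was not tested there. With a temperature term of its own for Col-0 in the fit over all libraries, which rests on 3 Col-0 libraries, no member passed in edgeR (lowest adjusted p 0.349, EXPA8). The fitted Col-0 values of XTH15, XTH22, XTH24 and EXPA3 had the opposite sign (−0.22, −0.23, −0.07 and 0.02). For XTH24 the fitted value, which allows for the title number and has an SE of 0.65, differs in sign from the measured levels, 399 and 494 CPM at 27 °C against 369 CPM at 22 °C.

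At 12 °C against 22 °C, 1 member of each family was called, on 3 overexpressor libraries, 1 per line. XTH33, known as an XTH bound to the plasma membrane, rose: it had 10.2 CPM in ELF3-ox, 5.87 CPM in StELF3-ox and 13.9 CPM in BdELF3-ox at 12 °C, against 0.267 to 3.62 CPM in the 15 libraries at 22 °C. The groups did not overlap, and the log2 change was 2.42 ± 0.56 (edgeR adjusted p = 0.0143). Without the BdELF3-ox 12 °C library the change was 2.09 with an adjusted p of 0.0949. EXPA16 fell, with 50.3, 55.4 and 66.2 CPM at 12 °C, against 69.1 to 120 CPM at 22 °C, a change of −0.999 ± 0.264 (edgeR adjusted p = 0.0275). Without the ELF3-ox or the StELF3-ox library at 12 °C, EXPA16 no longer passed (adjusted p 0.168 and 0.0839).

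These were the calls in the 12 °C comparison, 1 of 28 XTH and 1 of 16 EXPA genes, against 6.09% of all genes (2.63% higher and 3.45% lower). More members were apart without passing the test: the 12 °C and 22 °C levels did not overlap for 9 XTH genes (32.1%) and 3 EXPA genes (18.8%), against 23.8% of all genes. XTH20 had 15.1, 26.02 and 10.2 CPM in the ELF3-ox, StELF3-ox and BdELF3-ox libraries at 12 °C, above its range of 0.83 to 2.94 CPM at 22 °C. XTH31 had 51.3, 64.0 and 20.2 CPM, above its range of 3.61 to 17.0 CPM. Their fitted changes were 1.57 (edgeR adjusted p = 0.257) and 1.78 (0.0604). The other XTH genes apart were XTH6, XTH9, XTH11, XTH12, XTH16 and XTH32, and the expansins were EXPA13, EXPA16 and EXPA18.

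The 12 °C calls depended on the model. All 3 libraries carry the title number 184, which no 22 °C library has, so the fit links 12 °C to 22 °C through the 27 °C libraries numbered 184. Without that term 9 XTH genes rose, among them XTH20 (3.31), XTH31 (2.62) and XTH12 (2.21), EXPA7 and EXPA11 rose, EXPA8 and EXPA13 fell and EXPA16 did not pass, with 5469 genes called in all. Without the root-poor libraries, 9 XTH genes (7 higher, 2 lower) and 3 EXPA genes (1 higher, 2 lower) were called, against 10.9% of all genes. The 7 higher were XTH11, XTH14, XTH15, XTH16, XTH22, XTH31 and XTH33, and the lower members were XTH21, XTH24, EXPA1 and EXPA16, while EXPA7 was higher. Leaf markers summed to 20230 to 27770 CPM at 12 °C, against 11990 to 21860 CPM at 22 °C, and their part was not tested.

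ELF3-ox, StELF3-ox and BdELF3-ox had libraries at all 3 temperatures, which shows the order of levels within a line. XTH24 had its lowest level at 12 °C and its highest at 27 °C in each line: 122, 341 and 597 CPM at 12, 22 and 27 °C in ELF3-ox, 117, 288 and 529 CPM in StELF3-ox, and 238, 412 and 442 CPM in BdELF3-ox (mean of its 3 libraries at 27 °C). EXPA8 did likewise, with 5.78, 12.8 and 21.2 CPM in ELF3-ox, 7.73, 12.5 and 36.9 CPM in StELF3-ox, and 7.11, 17.7 and 44.7 CPM in BdELF3-ox. XTH20 ran the other way, with 15.1, 1.06 and 0.231 CPM in ELF3-ox, 26.02, 1.40 and 0.345 CPM in StELF3-ox, and 10.2, 1.43 and 0.906 CPM in BdELF3-ox. At 27 °C the ELF3-ox and StELF3-ox values of XTH20 are worth about 3 counts. The BdELF3-ox means at 27 °C include the root-poor replicate 2. In replicates 1, 2 and 3, XTH24 had 426, 160 and 740.5 CPM and EXPA8 28.5, 79.5 and 26.1 CPM. XTH20 had 1.04, 0 and 1.68 CPM there, so replicate 3 lay above the 22 °C level of that line. In all, 1 of 28 XTH genes (3.57%) and 1 of 16 EXPA genes (6.25%) had the rising order in each line, against 7.01% of all genes. The falling order was that of 4 XTH genes (14.3%) and 1 EXPA gene (6.25%), against 5.88% of all genes, and for XTH12, XTH13 and XTH26 it rests partly on levels of 3 counts or fewer. These orders are descriptions of 1 library per point, apart from BdELF3-ox at 27 °C, where the mean includes a root-poor library. They were not tested.

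**Figure D2:**
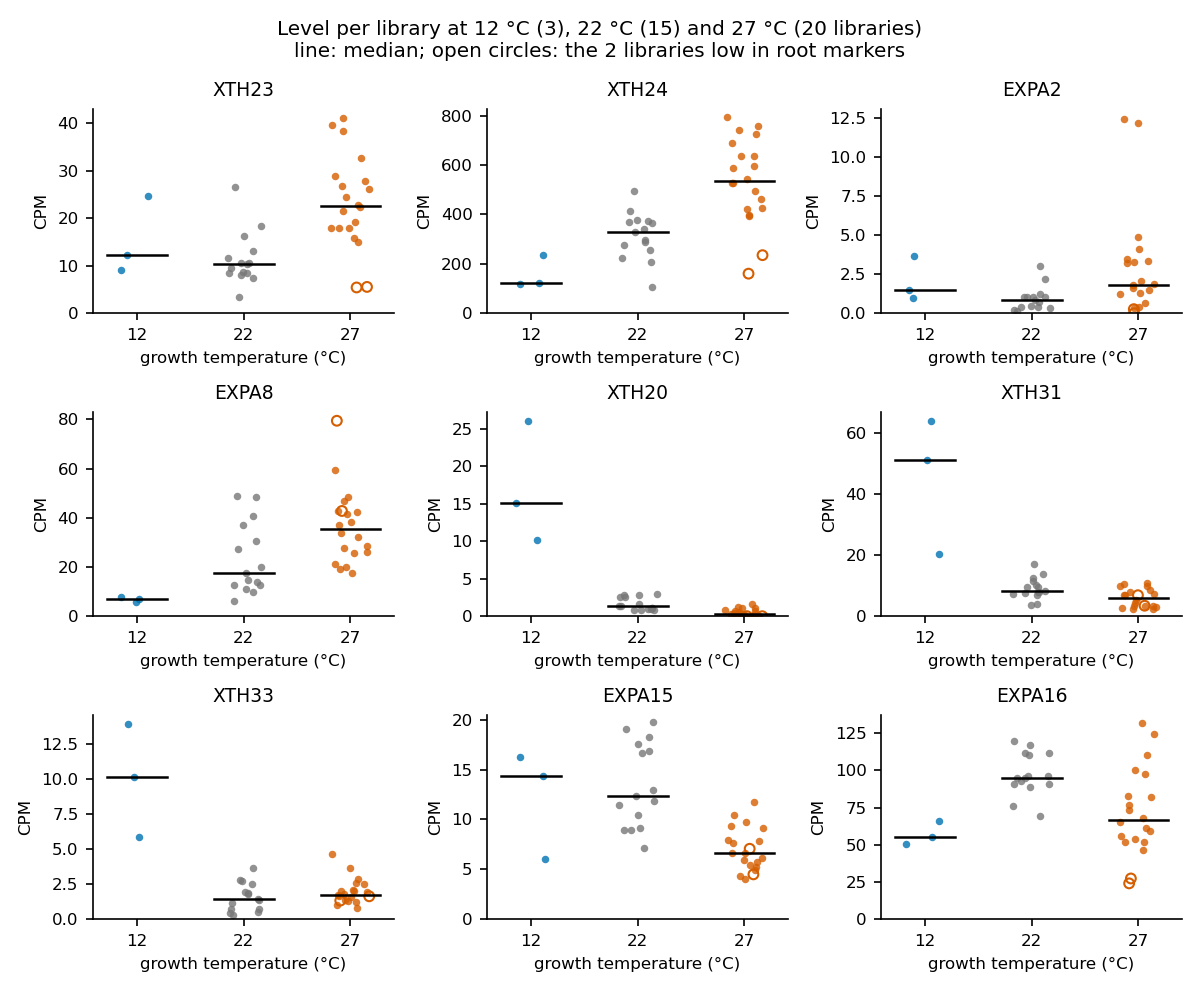
Level in CPM (vertical axis) of 9 members in each library at 12, 22 and 27 °C (horizontal axis), with the median as a line and the root-poor libraries as open circles. XTH24 and EXPA8 have their lowest medians at 12 °C, XTH20, XTH31 and XTH33 their highest, and EXPA15 its lowest at 27 °C.

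Loss of ELF3 was followed in elf3-1 against Col-0, in elf3-1 X ELF4-ox against ELF4-ox, and in the mean of both contrasts. XTH15 rose and XTH6 fell. XTH15 had 268 CPM at 27 °C and 216 CPM at 22 °C in elf3-1, against 30.2 and 21.4 CPM at 27 °C and 34.1 CPM at 22 °C in Col-0. In elf3-1 X ELF4-ox it had 299 CPM at 27 °C and 60.3 CPM at 22 °C, against 29.1 CPM and 21.3 CPM in ELF4-ox. Among the libraries compared, each with the mutation was above each without it. Outside them, elf4-2 27 °C had 92.9 CPM, above the 60.3 CPM of elf3-1 X ELF4-ox 22 °C. The mean change was 2.62 ± 0.45 on the log2 scale (edgeR adjusted p = 0.0014, 4 libraries against 5), and leaving out elf3-1 22 °C gave 2.14 with an adjusted p of 0.0696.

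XTH6 had 74.6 CPM at 27 °C and 73.2 CPM at 22 °C in elf3-1, against 225 and 229 CPM at 27 °C and 146 CPM at 22 °C in Col-0. In elf3-1 X ELF4-ox it had 135 CPM at 27 °C and 86.7 CPM at 22 °C, against 209 CPM and 165 CPM in ELF4-ox. The groups did not overlap, and the mean change was −0.94 ± 0.18 (edgeR adjusted p = 0.00405), which passed in all 14 alternatives run for it. XTH15 and XTH6 were the called members over both contrasts, 2 of 28 XTH and 0 of 16 EXPA genes, against 3.07% of all genes (1.85% higher and 1.23% lower). In 5.26% of all genes, and in 3 XTH genes, the groups did not overlap. Of the EXPA genes, 5 had an unadjusted p under 0.05, against 3031 of all 19587 genes. DESeq2 called 2 EXPA genes, with 919 genes called in all, against 602 with edgeR.

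The next members in size passed the test only under some settings. XTH7 had 153, 205, 277 and 212 CPM in elf3-1 27 °C, elf3-1 22 °C, elf3-1 X ELF4-ox 27 °C and elf3-1 X ELF4-ox 22 °C, against 363 to 523 CPM in the 5 Col-0 and ELF4-ox libraries. The groups did not overlap, the change was −1.04 ± 0.29 (edgeR adjusted p = 0.0536), and the adjusted p was 0.0170 under DESeq2. EXPA11 had 10.1 to 15.5 CPM in the 4 libraries with elf3-1, against 6.13 to 10.7 CPM in the 5 without (0.78 ± 0.23, edgeR adjusted p = 0.0615). EXPA8 had 32.0 to 59.6 CPM, against 6.35 to 47.0 CPM (1.17 ± 0.38, adjusted p = 0.104). Without the root-poor libraries, XTH15 and XTH30 (0.83) rose, XTH6, XTH7 and XTH9 fell, and EXPA1 (1.05), EXPA4 (0.71), EXPA8 (1.15) and EXPA11 (0.77) rose, against 6.34% of all genes called. None of the 9 libraries compared is root-poor. The fit shares one estimate of the spread, and the SE of XTH15 was 0.28 without the root-poor libraries and 0.45 with them.

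**Figure D3:**
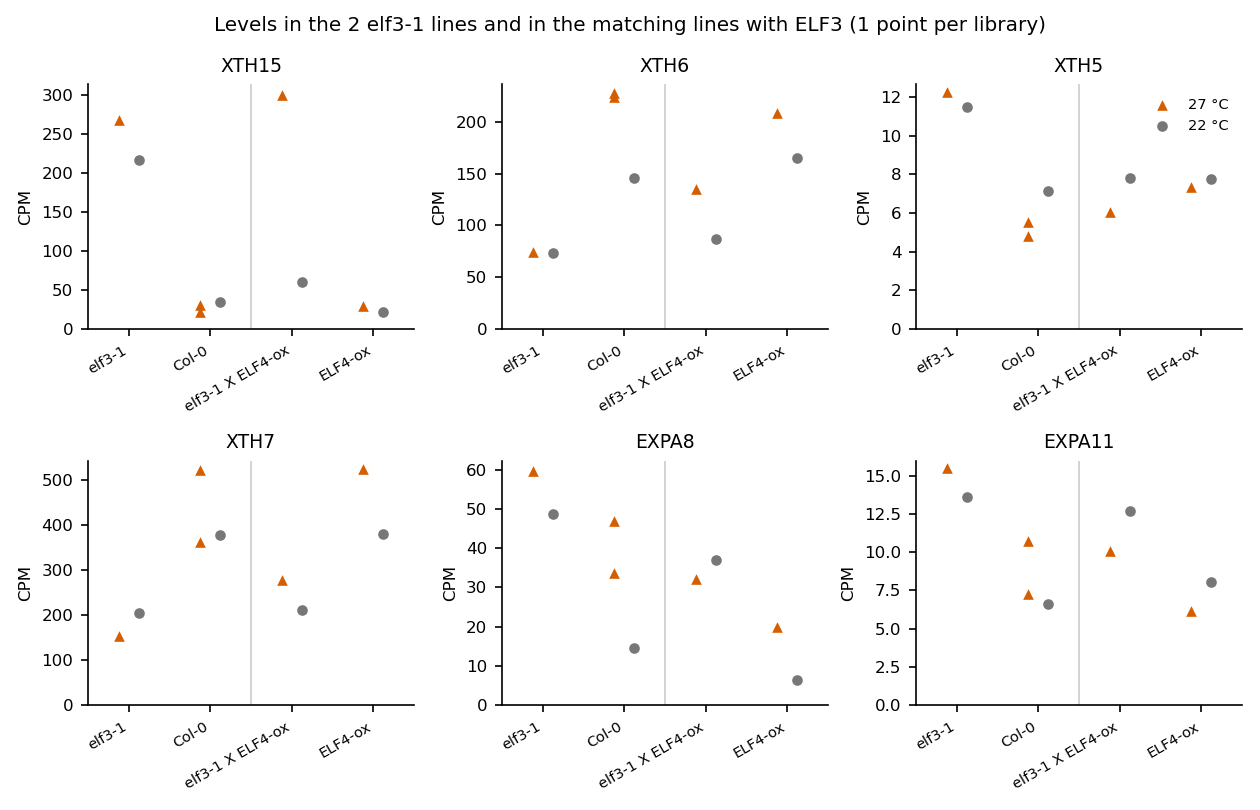
Level in CPM (vertical axis) of 6 members in elf3-1, Col-0, elf3-1 X ELF4-ox and ELF4-ox (horizontal axis), 1 point per library, with triangles at 27 °C and circles at 22 °C. XTH15 is between 60.3 and 299 CPM in the elf3-1 lines, against 21.3 to 34.1 CPM in Col-0 and ELF4-ox, and XTH6 and XTH7 lie lower in the elf3-1 lines.

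In elf3-1 against Col-0 alone, 3 XTH genes were called, 10.7% of those tested, against 0.699% of all genes (0.403% higher and 0.296% lower). The groups did not overlap for 11 XTH and 4 EXPA genes (39.3% and 25%), against 30.4% of all genes. XTH15 (2.77 ± 0.60) and XTH5 (0.95 ± 0.20) rose and XTH6 (−1.11 ± 0.26) fell, with edgeR adjusted p of 0.0290, 0.0273 and 0.0442. XTH5 had 12.3 CPM at 27 °C and 11.5 CPM at 22 °C in elf3-1, against 4.80 and 5.55 CPM at 27 °C and 7.14 CPM at 22 °C in Col-0, with no overlap. Its levels in elf3-1 X ELF4-ox, 6.05 and 7.83 CPM, were close to the 7.34 and 7.79 CPM of ELF4-ox. The count rested on single libraries: it was 0 without elf3-1 27 °C, elf3-1 22 °C or Col-0 27 °C replicate 1, 1 without Col-0 27 °C replicate 2 and 2 without Col-0 22 °C. Without the root-poor libraries XTH5, XTH6, XTH15 and also XTH7 (−1.21) passed, against 2.79% of all genes. Of the EXPA genes, edgeR and DESeq2 called 0 in elf3-1 against Col-0. There 2 had an unadjusted p under 0.05, against 2724 of all 19587 genes. Of the elf3-1 libraries, only the one at 22 °C shares a title number (181) with Col-0.

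In elf3-1 X ELF4-ox against ELF4-ox, edgeR called 0 members, against 0.684% of all genes. An unadjusted p under 0.05 was reached by 4 XTH and 3 EXPA genes, against 1543 of all 19587 genes. DESeq2 called 1 XTH and 0 EXPA genes, with 251 genes called in all, against 134 with edgeR. XTH15 had a log2 difference of 2.48 ± 0.67 there (edgeR adjusted p = 0.114), and one of 2.45 ± 0.42 without the root-poor libraries (adjusted p = 0.00189). Without those libraries XTH30 (0.96) and EXPA1 (1.53) also rose, against 1.71% of all genes.

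Growth regulators also changed. Of 15 on the list, 9 rose over both contrasts and 0 fell, against 3.07% of all genes called, with PIF5 at 2.96, HFR1 at 3.60, IAA29 at 3.13 and PRE1 at 3.53 on the log2 scale. Of 14 genes of xyloglucan synthesis and trimming, 1 was called: BGAL10, the xyloglucan galactosidase, fell by 1.11 (edgeR adjusted p = 0.000599), with 20.99 to 34.5 CPM in the elf3-1 lines and 47.9 to 88.6 CPM in Col-0 and ELF4-ox. Root markers summed to 416 and 373 CPM in elf3-1 and to 372 and 430 CPM in elf3-1 X ELF4-ox, against 208, 231 and 212 CPM in Col-0 and 182 and 232 CPM in ELF4-ox. The groups did not overlap in this sum. Of the 8 root markers tested, 0 passed with edgeR over both contrasts and 3 had an unadjusted p under 0.05. Their part in the change of XTH15 or any other member was not tested.

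The remaining line comparisons called 0 members with edgeR and 0 with DESeq2. In elf4-2 against Col-0, with 0.0817% of all genes called, XTH6 had 88.4 CPM at 27 °C and 81.9 CPM at 22 °C in elf4-2, below all 3 Col-0 libraries (−0.94 ± 0.31, edgeR adjusted p = 0.587). XTH15 had 92.9 CPM at 27 °C in elf4-2, above its Col-0 levels, and 18 CPM at 22 °C, below them. The elf4-2 and Col-0 libraries share no title number, and neither do those of ELF4-ox and Col-0. At an unadjusted p under 0.05, elf4-2 against Col-0 had 1 XTH and 0 EXPA genes, against 1192 of all 19587 genes. For the cross elf4-2 X ELF3-ox, set against its parent ELF3-ox, the counts were 1 and 1, against 866 of all genes. In that comparison 0.0408% of all genes were called.

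Overexpression and polyglutamine length gave the same count of 0. ELF3-ox against Col-0 had 0 XTH and 1 EXPA genes at an unadjusted p under 0.05, against 716 of all 19587 genes at that threshold. At an adjusted p under 0.05, 0.0306% of all genes were called. ELF4-ox against Col-0 had 1 and 1, against 650 of all genes (0.00511% called). BdELF3-ox against ELF3-ox had 3 and 2, against 475 (0% called), and StELF3-ox against ELF3-ox 0 and 0, against 315 (0% called). Q21 lines against Q0 lines had 1 and 0, against 660 of all genes (0.0153% called). The ELF3 level also differed between the Q21 and Q0 lines. The warmth response of the lines carrying elf3-1 was set against that of all other lines in an interaction test. There 0 members passed with edgeR or DESeq2, and 0% of all genes were called. At an unadjusted p under 0.05 it had 2 XTH and 0 EXPA genes, against 247 of all genes. The line comparisons rest on 2 to 5 libraries a side, and a missed threshold does not show that levels were equal.

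The members' levels in the root-poor libraries are given as a description of 2 libraries, with no test. Of 28 XTH genes, 6 (21.4%) were lower in both than in any of the other 36 libraries, against 9.77% of all genes, and 0 were higher, against 8.16% of all genes. XTH14 and XTH21 had 0 reads in both, where 3 counts are worth 0.543 CPM (BdELF3-ox) and 0.791 CPM (ELF3pro::BdELF3). Elsewhere XTH14 had at least 3.30 CPM and XTH21 at least 0.677 CPM, so that 0 reads do not place XTH21 below the other libraries. With 3 counts as the lowest level, 5 XTH genes (17.9%) stayed below, against 7.52% of all genes. XTH15 had 1.63 CPM in BdELF3-ox replicate 2 and 4.75 CPM in ELF3pro::BdELF3, against at least 9.22 CPM elsewhere. XTH30 had 17.2 and 15.8 CPM, against at least 58.5 CPM, XTH16 had 15.6 and 20.6 CPM, against at least 33.3 CPM, and XTH18 had 3.44 and 0.792 CPM, against at least 12.9 CPM.

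The EXPA genes split in these 2 libraries. The root-hair expansin EXPA18 had 0 reads in both, against at least 0.858 CPM elsewhere, and EXPA7 had 0 and 0.264 CPM, against at least 2.57 CPM elsewhere. EXPA17, known from lateral roots, had 0.181 and 0 CPM, against at least 0.191 CPM, a gap that cannot be seen at 3 counts. EXPA16 was also below all others, at 27.3 and 24.0 CPM, against at least 46.7 CPM. EXPA1, known from guard cells, had 102 and 100.6 CPM, against at most 87.5 CPM elsewhere, the leaf expansin EXPA10 had 30.04 and 30.6 CPM, against at most 16.7 CPM, and EXPA5 had 37.8 and 39.6 CPM, against at most 30.7 CPM. So 4 EXPA genes (25%), or 3 (18.8%) with 3 counts as the lowest level, were below and 3 (18.8%) above all other libraries. Leaf markers summed to 13030 and 11040 CPM in the root-poor libraries, within the 7840 to 16260 CPM of all libraries at 27 °C.

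**Figure D4:**
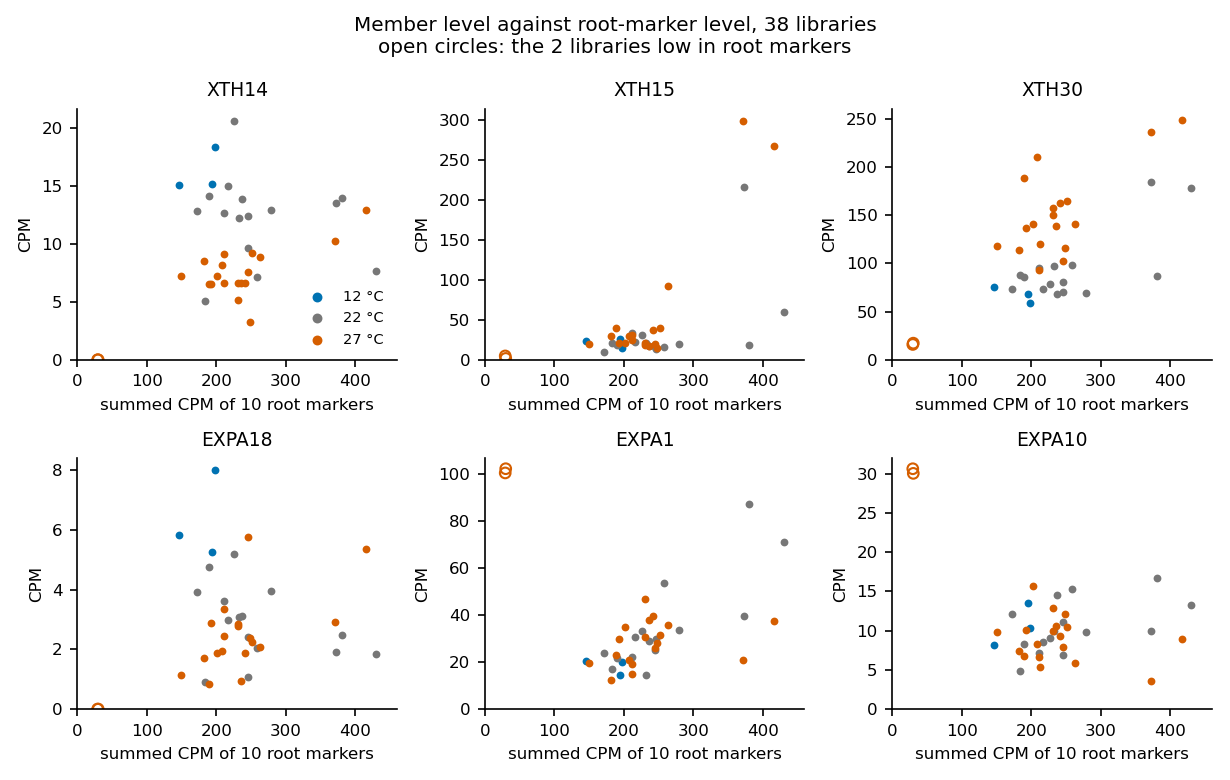
Level in CPM (vertical axis) of 6 members against the summed CPM of 10 root markers (horizontal axis) in 38 libraries, coloured by temperature, with the root-poor libraries as open circles. XTH14, XTH15, XTH30 and EXPA18 are lowest in the open circles, EXPA1 and EXPA10 highest.

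Peaks of tagged ELF3 were searched near the members, taking the 2000 peaks of highest −log10 p in each list and a summit within 1000 bp of the gene as near. No member lay near any of the 350 sites shared by both ELF3-MYC replicates at 17 °C: 0 of 33 XTH and 0 of 16 EXPA genes, against 1.27% of 37899 genes. That count was also 0 with the 1000 highest peaks (1.03% of all genes), with distances of 500 and 2000 bp (0.958% and 1.78%) and with any overlap counted as shared (1.32%). With every deposited peak, 4 XTH genes (XTH7, XTH9, XTH15 and XTH22) and 3 EXPA genes (EXPA1, EXPA4 and EXPA16) lay near a shared site, against 19% of all genes. Such sites include weak peaks, as the lists of pulled-down samples hold 21266 to 81133 peaks each.

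XTH22 and XTH24 recurred in one kind of list. Each had a kept peak in the same 14 of the 15 lists from anti-Flag pull-downs, in 0 of 5 from anti-c-Myc, 0 of 3 from anti-HA and 0 of 2 from input chromatin. The list without them was ELF3pro::ELF3-Q15 27 °C, where their peaks ranked 2288 and 2549. Their best ranks, 10 for XTH22 (chr5:23307117-23309325, TAIR10) and 8 for XTH24 (chr4:14819101-14820808), were both in ELF3pro::BdELF3 22 °C, with authors' fold enrichments of 8.41 and 7.78. The summit lay within the gene in 13 of 14 lists for XTH22 and 14 of 14 for XTH24. The anti-Flag lists come from lines of several constructs and from 17, 22 and 27 °C, and no anti-Flag list of a line without a Flag tag was used here, so binding of the tagged protein and background of the pull-down cannot be told apart. Among all genes, 2.75% had a kept peak in 10 or more pull-down lists, against 2 of 33 XTH genes (6.06%) and 0 of 16 EXPA genes.

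XTH31 and XTH32 had peaks in other lists. XTH31 had a kept peak in all 3 anti-HA lists of ELF3-ox and in both lists of ELF3pro::ELF3-Q15, with summits between 16447359 and 16447399 on chromosome 3, within the gene. Its ELF3-ox 22 °C peak (chr3:16447214-16447708) ranked 148 with an authors' fold enrichment of 14.6. XTH32 had kept peaks in 8 pull-down lists, all 3 anti-HA lists, 4 anti-Flag lists and 1 anti-c-Myc list, at different places. The summits of the anti-HA lists and ELF3pro::ELF3-Q15 27 °C lay between 15472994 and 15473030 on chromosome 2. Those of ELF3pro::ELF3-Q20 and both ELF3pro::ELF3-BdPrD lists at 27 °C lay between 15474729 and 15474766. The anti-c-Myc summit, from ELF3-MYC in elf3-1 x ELF4-ox at 27 °C, lay outside the gene at 15475333. XTH27 had kept peaks in 9 anti-Flag lists, XTH26 in 6 lists, and EXPA6 in 7 and also in INPUT 17 °C, at rank 164. The EXPA6 summits of the pull-down lists spread from 12430379 to 12433860 on chromosome 2, with 3 of 7 within the gene. XTH25 had kept peaks in 3 lists, and these also lie near its neighbour XTH22.

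Over all pull-down lists, 18 of 33 XTH genes (54.5%) and 9 of 16 EXPA genes (56.2%) had a kept peak in at least 1, against 55.3% of all genes. In 5 or more lists the counts were 6 XTH genes (18.2%) and 1 EXPA gene (6.25%), against 11.8%. Both shares for any list lay near the background. XTH15 and XTH6, called over both contrasts for loss of ELF3, had no kept peak in any list, and neither had XTH20, XTH23 or EXPA2, called at 27 °C. Deposited peaks of lower rank did lie near XTH15 in both input lists and near XTH6 in INPUT 27 °C, besides pull-down lists.

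**Figure D5:**
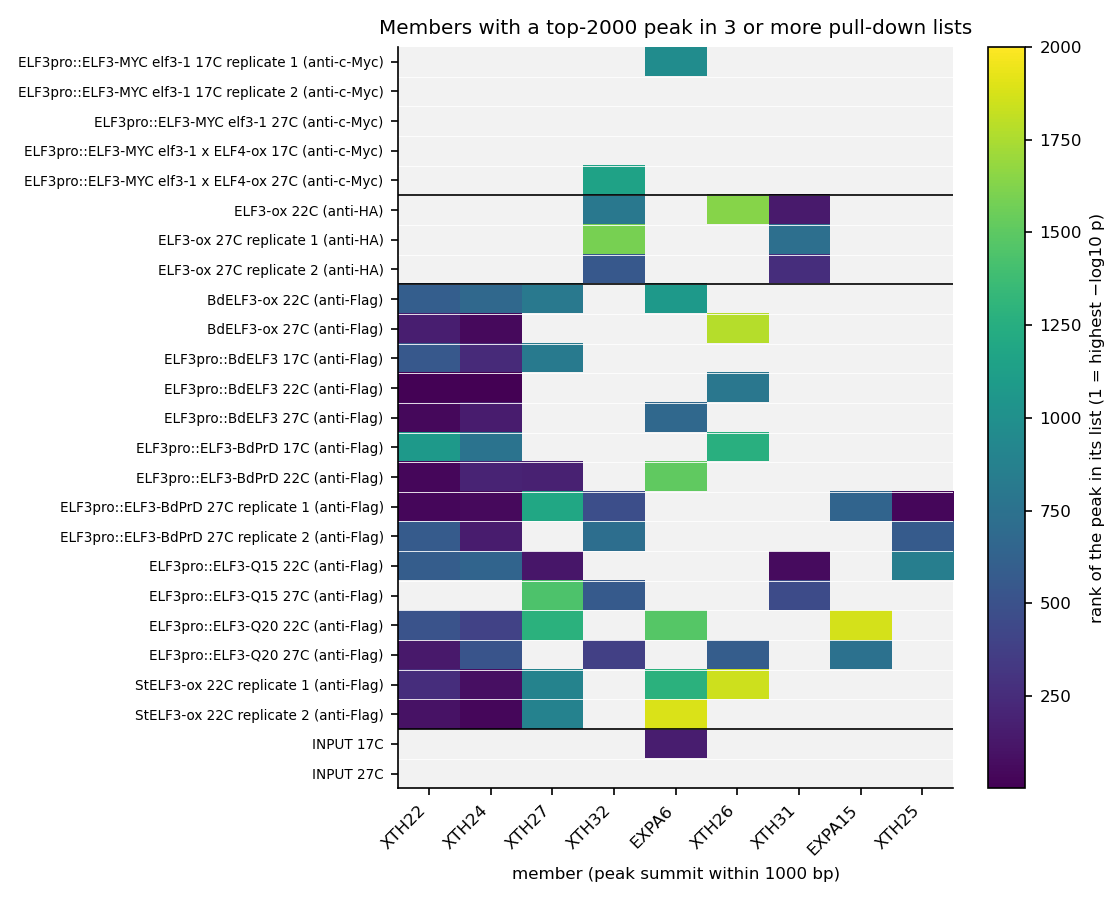
Members with a kept peak in 3 or more pull-down lists (horizontal axis) against the 25 peak lists (vertical axis), coloured by the rank of the peak in its list, with grey for none. XTH22 and XTH24 fill 14 of the 15 anti-Flag lists, and XTH31 and XTH32 the 3 anti-HA lists.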

How the data were processed

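RNA was measured in 38 3′-end libraries and ChIP in 25 peak lists. Reads were aligned with STAR, per the submitters' processing notes, and the authors deposited raw counts per locus; the counting tool and annotation are not stated there. For ChIP the same notes name the build TAIR10 and the tools MACS2, Bowtie2, Trimmomatic, deepTools and Picard. The deposited peaks carry the authors' fold enrichment and −log10 p, 1 list per sample. Rows for reads not uniquely aligned (2.64 to 35.1% of a library) and in no or several genes (2.20 to 5.01%) were left out.

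Testing was limited to loci reaching 1 CPM in 3 or more libraries and used edgeR 4.0.16 (R 4.3.3; TMM, quasi-likelihood, 1 fit with line, temperature and title prefix, adjusted p under 0.05 by Benjamini-Hochberg over all loci tested). The procedure was also run on simulated counts with planted changes. Those counts held the same spread for all genes and no title prefix effect, so they do not show how the fit handles the prefixes. Each standard error (SE) was derived as the absolute log2 change divided by the square root of its quasi-likelihood F statistic. CPM used TMM library sizes, and 3 counts were the floor. DESeq2 1.42.0 was an alternative. Depth limits members near the floor, and floors cover counting error only.

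Each list was reduced to its 2000 peaks with the highest −log10 p. Gene positions came from a TAIR10.1 RefSeq table. Of the ELF3-MYC 27 °C samples, 1 is not used here. The members and lists were chosen with earlier results of these data known. By rule, members past the threshold were described (up to 6 highest and 6 lowest changes), others as ranges and counts, and of other lists up to 4 called genes by smallest p; EXLA1 and the uncalled members named singly were chosen after their values were seen. One StELF3-ox ChIP sample labelled 22 °C has a file name with 27 °C; the label was used. No sequences are shown.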

Additional observations from a re-analysis of the deposited data

How the results depend on the processing

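At 27 °C against 22 °C, 3 XTH and 2 EXPA members were called within the lines sharing a title prefix, and 0 and 0 with a term for Col-0 alone, where 4 members reversed (XTH15 −0.22, XTH22 −0.23, XTH24 −0.067, EXPA3 0.016). Both rest on fewer samples, with 1464 and 0 genes called in all. At 12 °C, DESeq2 called 4 XTH members (1676 genes in all), the fit with no prefix term 9 XTH and 4 EXPA (5469), and the fit without the root-poor libraries 9 and 3 (2130), against 1192 genes in the main model. For elf3-1 X ELF4-ox against ELF4-ox, DESeq2 called 1 XTH member (251 genes), and the fit without the root-poor libraries 2 XTH and 1 EXPA (333), against 134 genes. For ELF3 loss over both contrasts these settings gave 4 XTH and 2 EXPA members (919 genes), and 5 and 4 (1237), against 602 genes. With all deposited peaks, 4 XTH and 3 EXPA members lay near a shared site, against 19% of all genes. The cause of these differences was not tested. Leaving out 1 library at a time gave 0 to 1 EXPA members at 12 °C, 0 to 2 XTH members for elf3-1 against Col-0, and 1 to 3 XTH and 0 to 1 EXPA members for ELF3 loss. Of 39 such alternatives for single members, 23 kept the call and 16 lost it, and none was run for 27 °C against 22 °C. Of 160 other alternatives for single members, 123 kept direction and side of the threshold and 33 lost the call. No scaling moved the median of all genes by over 0.1 on the log2 scale. No paired analysis was possible because the labels give the groups no shared replicate numbers; the line term already compares temperatures within lines.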
